A study of Homo sapiens with 29 samples.

Results

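The transcription factor ZNF148 and 6 zinc finger factors related to it by sequence or by binding site, ZNF281, SP1, SP3, SP4, VEZF1 and PATZ1, were followed on arrays of human LHCN-M2 myoblasts in which ZNF148 had been knocked down with small interfering RNA. These 7 genes, of 22439 genes with a named probe, were taken through the RefSeq transcript recorded for each probe, and all 9 of their probes were among the 38839 probes (18432 genes) that entered the tests. The comparisons bear on how far ZNF148 RNA was lowered and on whether RNA of the related factors moved with it.

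LHCN-M2 is a selected clone of human skeletal muscle myoblasts made immortal with telomerase and CDK4, so all 10 groups are 1 cell line. Every culture received 20 nM siRNA, either nontargeting or against ZNF148. Cells were collected at 24, 48 or 96 h in growth media or at 48 or 96 h in differentiation media. For the arrays, the study's methods give 48 or 96 h as time spent in either media. Its general procedure brings in differentiation media 2 days after transfection, and whether the array cultures followed it is not stated. A comparison between media at the same number of hours may therefore also differ in time since transfection, and the effects of the media and of that time cannot be told apart. The 24 h cultures were subconfluent and the later ones confluent. Each group had 3 one-colour arrays, except nontargeting siRNA at 96 h in growth media with 2, which gives 29 arrays in all. Both pooled and individual ZNF148 siRNAs are described for the study, and which of them was used for the arrays is not given in the sources used here. Values are log2 signal, on which a difference of 1 is 2-fold. Levels of different probes are not compared, because probes differ in brightness. A gene with 2 probes is given by the brighter one, and the other is reported beside it. Where nothing says that arrays of a group came from separate cultures, p-values measure only the spread between those arrays.

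ZNF148, also called ZBP-89, is a Krüppel-type zinc finger protein that binds GC-rich promoter elements and can raise or lower transcription. ZNF281 (ZBP-99) is its paralog and has closely similar zinc fingers. SP1, SP3 and SP4 belong to the SP family and bind the GC box, the motif GGGCGG, with SP1 and SP4 known mainly as activators and SP3 as an activator or a repressor depending on the promoter. VEZF1 and PATZ1 bind runs of G, VEZF1 being known from endothelial cells and PATZ1 carrying a BTB domain through which it recruits corepressors. ZNF148 and the SP factors can therefore bind overlapping sites.

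The 250 bases before the start of 4 of the related genes are shown because 1 or more GC boxes lie in each of them and because these genes moved in different directions after the knockdown. They are from RefSeq on GRCh38.p14, 5′ to 3′ on the strand of the gene, at chr1:200410037-200410286 (minus) for ZNF281, chr12:53379926-53380175 (plus) for SP1, chr2:173965703-173965952 (minus) for SP3 and chr7:21427833-21428082 (plus) for SP4. Capitals mark the GC box (GGGCGG, or CCGCCC for the opposite strand) and a G-rich run (GGGAGGG, or CCCTCCC).
ZNF281: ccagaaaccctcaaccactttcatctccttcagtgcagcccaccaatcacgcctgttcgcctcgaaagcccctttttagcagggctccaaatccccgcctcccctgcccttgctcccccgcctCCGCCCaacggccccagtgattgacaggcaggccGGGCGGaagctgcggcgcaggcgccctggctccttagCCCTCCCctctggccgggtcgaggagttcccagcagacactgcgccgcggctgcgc
SP1: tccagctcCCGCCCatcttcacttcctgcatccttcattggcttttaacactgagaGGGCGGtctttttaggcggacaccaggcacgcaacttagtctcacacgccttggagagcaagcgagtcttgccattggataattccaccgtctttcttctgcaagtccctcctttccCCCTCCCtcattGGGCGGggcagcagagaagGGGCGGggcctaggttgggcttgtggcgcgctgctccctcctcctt
SP3: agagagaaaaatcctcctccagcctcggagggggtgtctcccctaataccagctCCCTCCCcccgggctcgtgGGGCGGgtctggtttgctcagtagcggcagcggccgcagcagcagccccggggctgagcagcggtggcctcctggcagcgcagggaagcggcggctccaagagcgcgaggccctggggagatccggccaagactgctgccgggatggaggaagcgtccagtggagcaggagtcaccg
SP4: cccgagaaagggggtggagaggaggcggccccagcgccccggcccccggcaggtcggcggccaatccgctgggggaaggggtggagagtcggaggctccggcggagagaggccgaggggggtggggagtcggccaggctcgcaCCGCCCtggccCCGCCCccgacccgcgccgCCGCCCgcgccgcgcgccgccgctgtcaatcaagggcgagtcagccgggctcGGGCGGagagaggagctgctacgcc

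RefSeq lists several starts for some of these genes, and the windows shown are those at the outer end of each gene. The window shown for SP1 held 4 GC boxes, that of SP4 also 4, that of ZNF281 2 and that of SP3 1. SP1 has 1 other window, inside the gene, with 8 GC boxes and 2 G-rich runs, and SP3 has 2 others with 2 GC boxes each, 1 of them with a G-rich run. A G-rich run occurred at 1 place in the windows shown for ZNF281, SP1 and SP3 and was not matched in that of SP4. For VEZF1 the window held 3 GC boxes and was 84.0% GC, and it overlaps another annotated gene. For ZNF148 neither of the 2 windows, 68.4% and 66.0% GC, held either motif as spelled here. No window of PATZ1 was used here. Of 35116 windows of this length for all genes, 42.6% held a GC box and 24.7% a G-rich run, and no base of the windows described here was counted in both motifs. These matches describe letters in the window and are not binding sites.

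ZNF148 RNA was lowered at every time and in both media. With nontargeting siRNA its brighter probe read 8.62, 8.68 and 8.68 at 24 h, 8.52, 8.85 and 9.18 at 48 h and then 8.97 and 9.18 at 96 h in growth media. In differentiation media these arrays read 9.44, 9.46 and 9.31 at 48 h and then 9.83, 9.79 and 9.70 at 96 h. With ZNF148 siRNA the same probe read 7.10, 7.29 and 7.02 at 24 h, then 6.90, 6.90 and 6.53 at 48 h, and 6.76, 6.93 and 6.65 at 96 h, all in growth media. The lowest of the 14 nontargeting arrays, at 8.52, stood above the highest of the 15 ZNF148 siRNA arrays, at 7.29, so the groups did not overlap anywhere. In differentiation media the ZNF148 siRNA arrays read 7.02, 6.95 and 7.23 at 48 h and then 7.04, 6.86 and 7.19 at 96 h.

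The knockdown left 34.7% of the nontargeting signal at 24 h (95% confidence interval 28.5 to 42.4), a change of -1.53 on the log2 scale (SE 0.138, limma, p adjusted by Benjamini-Hochberg, BH, over all tested probes = 4.46e-08). In growth media 23.7% was left at 48 h (19.4 to 28.9, BH-adjusted p = 7.97e-11) and 20.3% at 96 h (16.3 to 25.4, BH-adjusted p = 9.96e-11). In differentiation media 19.8% was left at 48 h (16.2 to 24.1, BH-adjusted p = 3.58e-12) and 15.0% at 96 h (12.3 to 18.3, BH-adjusted p = 7.76e-13). These percentages are of array signal from which background had been subtracted, not of RNA molecules or protein. The level of the targeted gene thus went with the label of each of the 29 arrays.

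The other ZNF148 probe showed the same. It lay between 7.81 and 9.31 over the nontargeting arrays and between 5.60 and 6.44 over the ZNF148 siRNA arrays, again without overlap. Its changes were -2.04 at 24 h, -2.27 at 48 h and -2.36 at 96 h in growth media, and -2.51 at 48 h and -2.94 at 96 h in differentiation media (largest of the 5 BH-adjusted p = 1.44e-08). The signal left by this probe ran from 24.3% at 24 h to 13.1% at 96 h in differentiation media. Over the 29 arrays the probes had a Pearson r of 0.965, which the knockdown itself sets in large part.

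**Figure D1:**
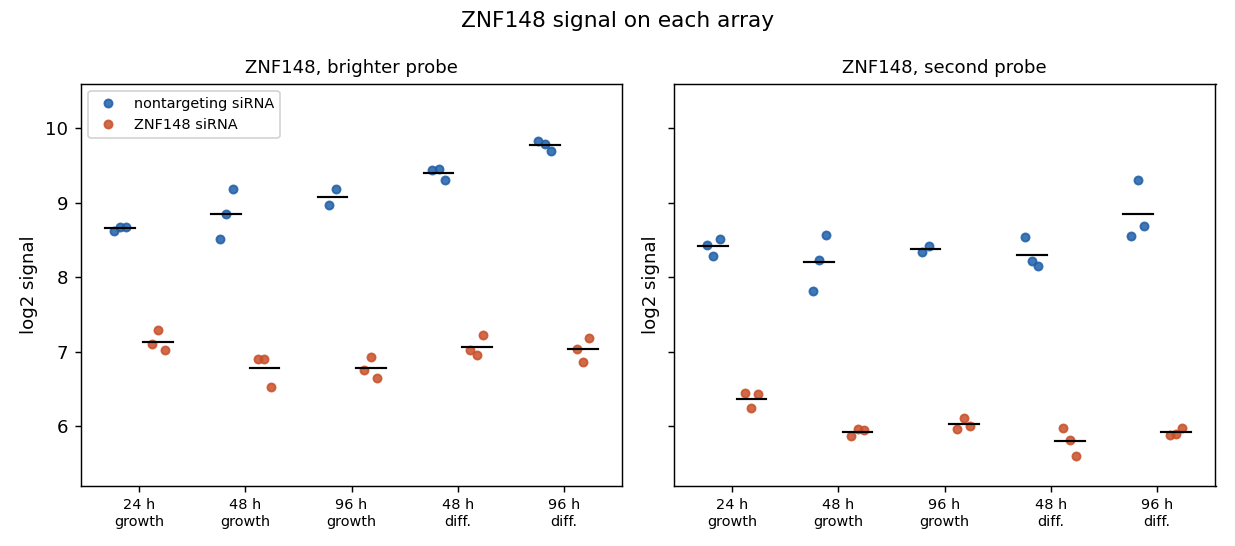
Log2 signal of ZNF148 on each of the 29 arrays, by group, for its brighter and its other probe. Points are arrays and bars are group means. The 14 nontargeting arrays of the brighter probe lie between 8.52 and 9.83 and the 15 ZNF148 siRNA arrays between 6.53 and 7.29.

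On the brighter ZNF148 probe the siRNA effect was larger at 48 and 96 h in growth media than at 24 h, while the other probe gave no call. On the former the change was more negative at 48 h than at 24 h by -0.55 (BH-adjusted p = 0.0320) and at 96 h than at 24 h by -0.77 (BH-adjusted p = 0.00500). The first of these calls was lost without any 1 of 5 of its arrays, with values of -0.55 to -0.39 and BH-adjusted p up to 0.115, and it was also lost with 75th percentile scaling (-0.34, BH-adjusted p = 0.178). On the other probe these differences were -0.23 (BH-adjusted p = 0.527) and -0.31 (BH-adjusted p = 0.394). The change did not differ detectably between 96 and 48 h in growth media (-0.22, BH-adjusted p = 0.607) or between media at 48 h (-0.26, BH-adjusted p = 0.363) or 96 h (-0.44, BH-adjusted p = 0.136). With slide as a block, the difference between media at 96 h was called (-0.66, BH-adjusted p = 0.0166). All 24 h arrays were on 1 slide with a scan of its own and the later ones on 3 other slides. Differences from 24 h can therefore not be told apart from the slide where they rest on levels, while each siRNA effect at 24 h lies within that slide. Cell density differed as well, the 24 h cultures being subconfluent and the later ones confluent. Differences from 24 h, in levels or in siRNA effects, can therefore not be told apart from density.

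In cells with nontargeting siRNA, the brighter ZNF148 probe was highest in differentiation media. Its group means ran in the order 9.77 ± 0.0673 (SD, n = 3) at 96 h and 9.40 ± 0.0793 (n = 3) at 48 h in differentiation media, then 9.08 ± 0.15 (n = 2) at 96 h, 8.85 ± 0.332 (n = 3) at 48 h and 8.66 ± 0.0322 (n = 3) at 24 h in growth media. Arrays of each differentiation media group lay above those of the next lower group, while the 3 growth media groups overlapped their neighbours. Differentiation exceeded growth media by 0.55 at 48 h (BH-adjusted p = 0.00248) and by 0.70 at 96 h (BH-adjusted p = 0.00111), and 96 h exceeded 48 h in differentiation media by 0.37 (BH-adjusted p = 0.0454). That last call was lost without any 1 of its 6 arrays, with values of 0.32 to 0.41 and BH-adjusted p of 0.0618 to 0.144. The difference between media at 48 h lay between 0.33 and 0.72 over 20 alternatives and was called in 17 of them. It was not called by the methods' t-test after adjustment. The first nontargeting array at 48 h in growth media, which stood apart in muscle markers as given below, was the lowest of its group. The other ZNF148 probe gave media differences of 0.10 (BH-adjusted p = 0.737) and 0.47 (BH-adjusted p = 0.0613), and 0.55 between 96 and 48 h in differentiation media (BH-adjusted p = 0.0155). On that probe 96 h in differentiation media was highest too, at 8.85, but the other groups, from 8.2 to 8.41, overlapped, with 48 h in differentiation media at 8.30 below 24 h in growth media. With ZNF148 siRNA the 5 groups lay between 6.78 and 7.14 and each overlapped its neighbour in the order of levels.

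Of the 6 related factors, 3 were higher and 0 lower at 24 h after ZNF148 siRNA, where 11.0% of all tested probes were called higher and 12.7% lower. At unadjusted p under 0.05, and with the methods' t-test, the number lower at 24 h was also 0. In growth media at 48 h 1 was higher and 4 lower (background 21.0% and 24.2%), and at 96 h 0 were higher and 5 lower (20.8% and 23.2%). In differentiation media 2 were higher and 4 lower at 48 h (24.3% and 28.3%), and 0 higher and 5 lower at 96 h (21.0% and 27.1%). For both comparisons at 96 h, the number higher was 0 at unadjusted p under 0.05 and by the methods' t-test too. The median change of the 6 was 0.31 at 24 h, then -0.42 at 48 h and -0.78 at 96 h in growth media and -1.01 at 48 h and -0.79 at 96 h in differentiation media. Over all tested probes these medians were 0, -0.05, -0.02, -0.03 and -0.04. The background shares are of probes, while the members are counted as genes, and a larger part of genes was called. With probes of a gene averaged, 6294 of 18432 genes were called in either direction at 24 h, against 9179 of 38839 probes. In growth media 10858 genes were called at 48 h and 10544 at 96 h, and in differentiation media 12018 and 10940.

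Changes of more than 2-fold were fewer. None of the 6 passed at 24 h, where 4.78% of all probes did, and 1 passed at 48 h (20.1% of all probes) and 2 at 96 h (20.8%) in growth media. In differentiation media 3 passed at 48 h (28.0%) and 2 at 96 h (20.6%). All of these were lower with ZNF148 siRNA and were SP3, VEZF1 or PATZ1. The 5 comparisons between siRNAs use different arrays from one another but share the estimate of the spread.

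**Figure D2:**
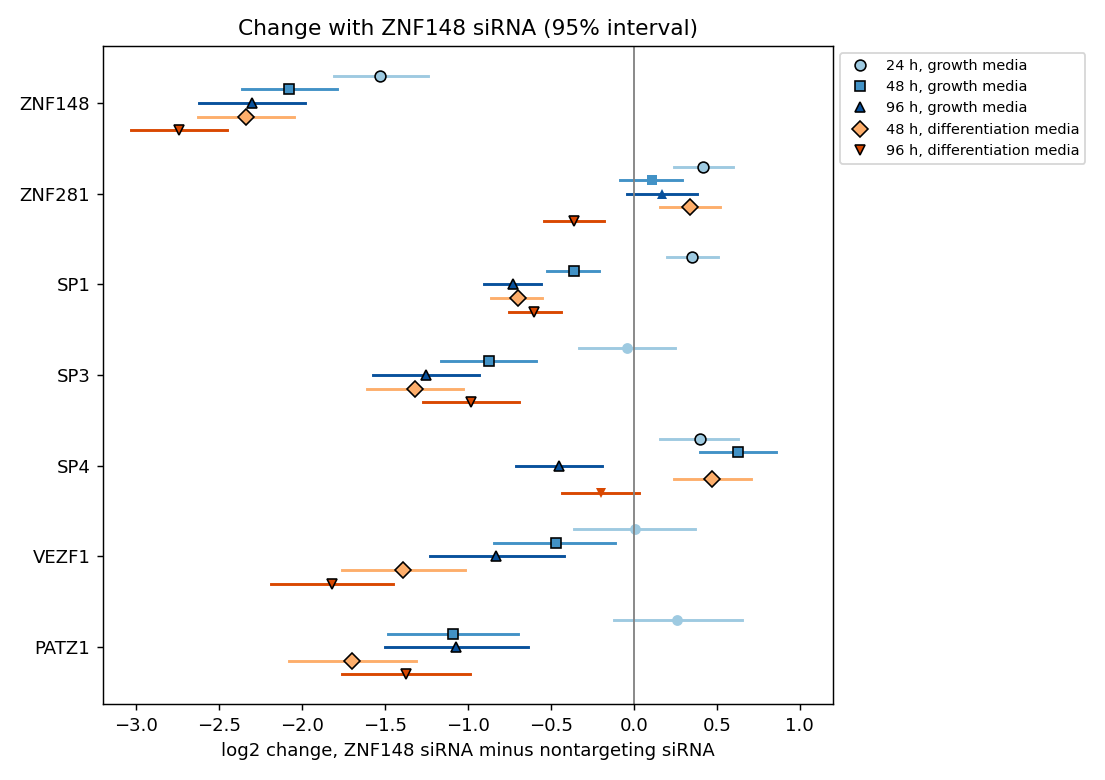
Change in log2 signal with ZNF148 siRNA against nontargeting siRNA for ZNF148 and the 6 related factors in the 5 comparisons, with 95% confidence intervals. ZNF148 lies between -2.74 and -1.53, and SP1 lies above 0 at 24 h and below 0 in the other 4 comparisons.

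The paralog ZNF281 changed by less than 2-fold in all 5 comparisons, and not in 1 direction. At 24 h it read 10.14, 10.14 and 10.34 with nontargeting and 10.74, 10.62 and 10.52 with ZNF148 siRNA, every array of the latter being higher. The change was 0.42 (SE 0.0882, BH-adjusted p = 0.00109). In differentiation media at 48 h the probe gave 10.20, 10.14 and 9.87 against 10.37, 10.42 and 10.45, a change of 0.34 (BH-adjusted p = 0.00228). At 96 h in differentiation media the order was turned, with 10.42, 10.43 and 10.46 for nontargeting and 10.09, 9.97 and 10.17 for ZNF148 siRNA, and ZNF281 was lower by -0.36 (BH-adjusted p = 0.00175). In growth media the change was 0.11 at 48 h (BH-adjusted p = 0.369), where arrays of the groups overlapped, and 0.17 at 96 h (BH-adjusted p = 0.186). The effect at 96 h differed between media by -0.53 (BH-adjusted p = 0.00509).

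No group of ZNF281 was far from the others. Its 10 group means lay between 10.07 and 10.63, and in the order of levels the fifth and the sixth group were the only neighbours that did not overlap. A rise of the paralog was not detected at 48 or 96 h in growth media, and the rises at 24 h and at 48 h in differentiation media were below 2-fold. The rise at 48 h was not called by the methods' t-test after adjustment (adjusted p = 0.0646), and with slide as a block the effect at 48 h lay below that at 24 h in growth media (-0.31, BH-adjusted p = 0.0427).

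SP1 changed direction between 24 h and later. At 24 h it read 9.27, 9.35 and 9.32 with nontargeting and 9.79, 9.64 and 9.57 with ZNF148 siRNA, and it rose by 0.35 (SE 0.0740, BH-adjusted p = 0.00103). Growth media arrays at 48 h read 9.17, 9.40 and 9.29 against 8.89, 8.86 and 9.02, and at 96 h 9.49 and 9.56 against 8.77, 8.73 and 8.88. SP1 was lower in every one of these ZNF148 siRNA arrays, by -0.36 at 48 h (BH-adjusted p = 0.000297) and -0.73 at 96 h (BH-adjusted p = 2.38e-07). In differentiation media it read 9.42, 9.45 and 9.49 against 8.81, 8.80 and 8.64 at 48 h, and 8.99, 9.14 and 9.0 against 8.38, 8.48 and 8.47 at 96 h. These are changes of -0.70 (BH-adjusted p = 3.75e-08) and -0.60 (BH-adjusted p = 6.46e-07), again without overlap of the groups.

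The effect on SP1 differed from that at 24 h by -0.72 at 48 h (BH-adjusted p = 1.32e-05) and by -1.08 at 96 h (BH-adjusted p = 1.09e-07) in growth media. It also differed between 96 and 48 h in growth media (-0.37, BH-adjusted p = 0.0367), a call lost without any 1 of 8 arrays, and between media at 48 h (-0.34, BH-adjusted p = 0.0153), a call lost without the third ZNF148 siRNA array in differentiation media (-0.28, BH-adjusted p = 0.0527). Between media, SP1 was lower at 96 h in differentiation than in growth media with nontargeting siRNA (-0.48, BH-adjusted p = 8.51e-05) and with ZNF148 siRNA (-0.35, BH-adjusted p = 0.00139). SP1 also fell from 48 to 96 h in differentiation media with both, by -0.41 with nontargeting (BH-adjusted p = 0.000158) and by -0.30 with ZNF148 siRNA (BH-adjusted p = 0.00320). The level of SP1 was thus highest in the ZNF148 siRNA cells at 24 h, at 9.67, and lowest in those at 96 h in differentiation media, at 8.44, and neither group overlapped its neighbour in the order of levels.

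SP3 was lower at all times but 24 h. At 24 h it read 10.43, 10.46 and 10.26 with nontargeting and 10.41, 10.41 and 10.20 with ZNF148 siRNA, a difference of -0.04 whose 95% confidence interval was -0.33 to 0.25 (BH-adjusted p = 0.915). At 48 h in growth media it read 10.20, 10.35 and 10.68 against 9.67, 9.68 and 9.27. At 96 h the readings were 10.81 and 10.69 against 9.36, 9.73 and 9.42. SP3 had by then fallen by 0.87 at 48 h (BH-adjusted p = 1.66e-05) and by 1.25 at 96 h (BH-adjusted p = 7.89e-07), with no overlap. In differentiation media it read 10.49, 10.61 and 10.72 against 9.25, 9.28 and 9.35 at 48 h, and 10.42, 10.48 and 10.17 against 9.57, 9.16 and 9.40 at 96 h. The changes there were -1.32 (BH-adjusted p = 3.68e-08) and -0.98 (BH-adjusted p = 3.98e-06). Against 24 h the effect on SP3 differed by -0.83 at 48 h (BH-adjusted p = 0.00188) and by -1.21 at 96 h (BH-adjusted p = 8.12e-05). With slide as a block its effect also differed between media at 48 h (-0.44, BH-adjusted p = 0.0211). No difference between media or between 96 and 48 h was called for SP3 within either siRNA, the nearest being -0.39 between media at 96 h with nontargeting siRNA (BH-adjusted p = 0.0565).

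SP4 rose with ZNF148 siRNA at 48 h in both media. At 48 h in growth media it read 8.12, 7.93 and 8.16 with nontargeting and 8.83, 8.74 and 8.54 with ZNF148 siRNA, a rise of 0.63 (BH-adjusted p = 6.31e-05). The 48 h differentiation media arrays read 8.24, 8.44 and 8.41 against 8.72, 8.91 and 8.87, a rise of 0.47 (BH-adjusted p = 0.00101). At 24 h the readings were 8.09, 8.17 and 8.04 against 8.57, 8.52 and 8.41. The rise at 24 h was 0.40 (SE 0.112, BH-adjusted p = 0.0115) and was not called without the first ZNF148 siRNA array (0.36, BH-adjusted p = 0.0516). At 96 h in growth media SP4 was lower instead, at 8.37 and 8.42 against 7.97, 7.95 and 7.91, a change of -0.45 (BH-adjusted p = 0.00481). At 96 h in differentiation media the groups overlapped and the change was -0.20 (BH-adjusted p = 0.152), which became -0.30 (BH-adjusted p = 0.0450) without the first ZNF148 siRNA array.

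The rise of SP4 was therefore found at 24 and 48 h and not at 96 h. The effect at 96 h in growth media differed from that at 24 h by -0.85 (BH-adjusted p = 0.000334) and from that at 48 h by -1.09 (BH-adjusted p = 0.000140), while that at 48 h did not differ detectably from 24 h (0.23, BH-adjusted p = 0.294). With ZNF148 siRNA, SP4 fell from 48 to 96 h by 0.76 in growth media (BH-adjusted p = 2.72e-05) and by 0.52 in differentiation media (BH-adjusted p = 0.00107). With nontargeting siRNA the same differences were 0.32 (BH-adjusted p = 0.253) and 0.15 (BH-adjusted p = 0.348). In the order of the 10 group means, from 7.94 to 8.84, each group of SP4 overlapped the next.

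**Figure D3:**
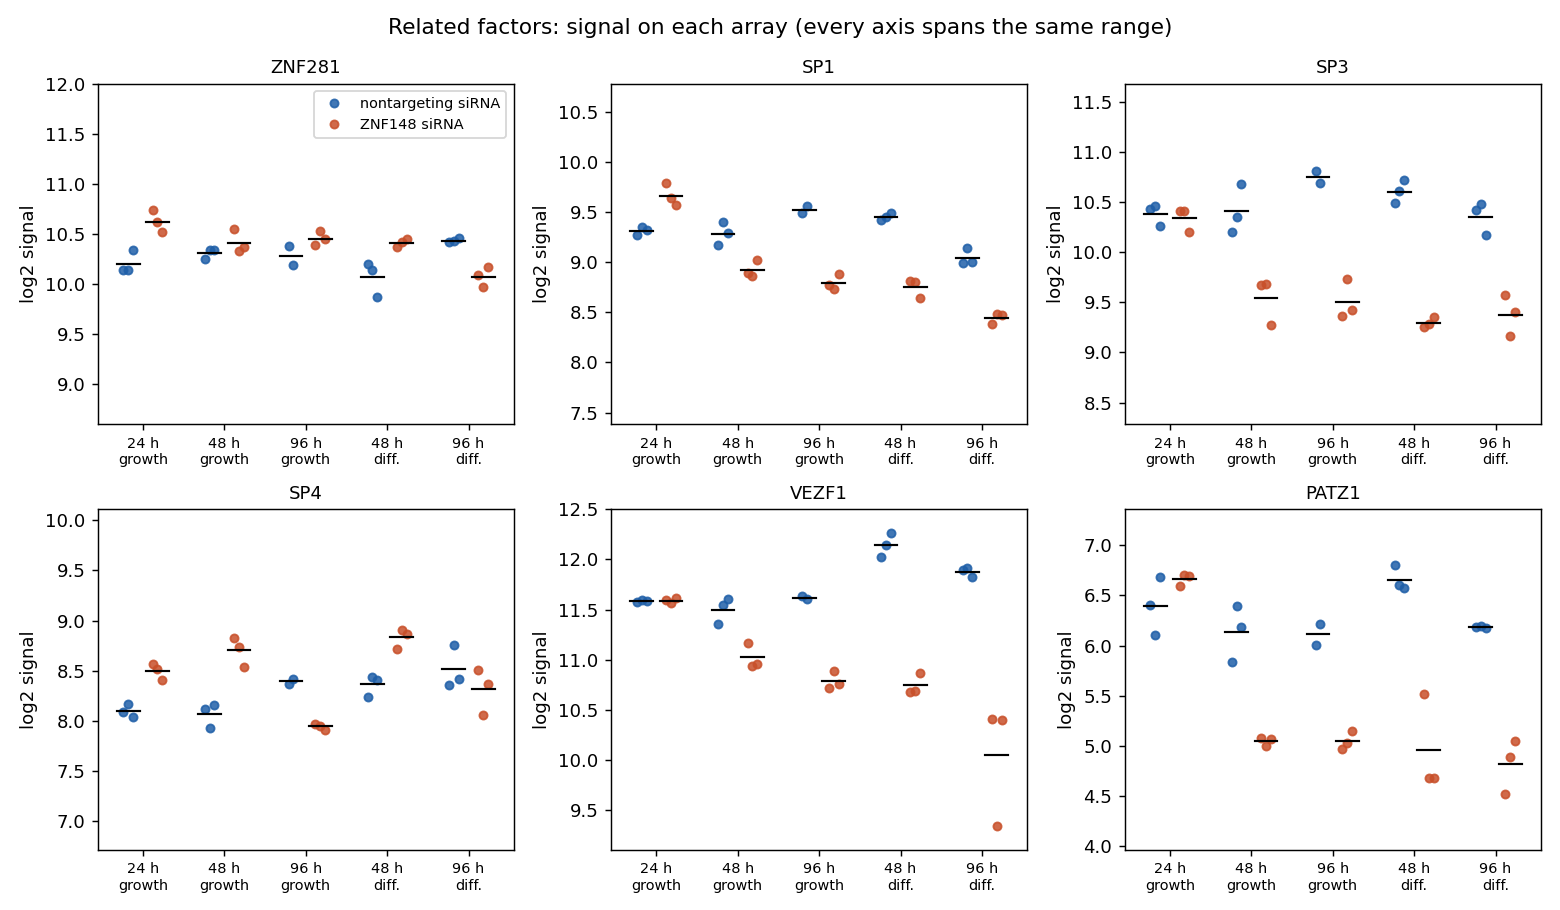
Log2 signal of the 6 related factors on each of the 29 arrays, by group, for the probe used in the tests. Points are arrays and bars are group means. SP3, VEZF1 and PATZ1 lie at like levels with either siRNA at 24 h and apart at the later times, while SP4 with ZNF148 siRNA lies above nontargeting at 48 h and below it at 96 h in growth media.

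VEZF1 was not called at 24 h and was lower with ZNF148 siRNA later, by more in differentiation than in growth media. At 24 h it read 11.57, 11.59 and 11.58 with nontargeting and 11.59, 11.56 and 11.61 with ZNF148 siRNA, a difference of 0.01 with a 95% confidence interval of -0.36 to 0.37. VEZF1 read, at 48 h in growth media, 11.36, 11.54 and 11.60 against 11.17, 10.94 and 10.96, and at 96 h 11.63 and 11.60 against 10.72, 10.89 and 10.76. VEZF1 was lower by -0.47 at 48 h (BH-adjusted p = 0.0319) and by -0.83 at 96 h (BH-adjusted p = 0.00144), without overlap. The call at 48 h was lost without any 1 of 4 arrays, the second or the third of either group, with changes of -0.45 to -0.42 and BH-adjusted p of 0.0795 to 0.103. In differentiation media it read at 48 h 12.02, 12.14 and 12.26 against 10.68, 10.69 and 10.87, a change of -1.39 (BH-adjusted p = 5.62e-07). At 96 h it read 11.89, 11.91 and 11.82 against 10.41, 9.34 and 10.40, a change of -1.82 (BH-adjusted p = 1.74e-08). The second of these ZNF148 siRNA arrays stood below the rest, and without it the change was -1.46.

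The effect on VEZF1 differed between media by -0.92 at 48 h (BH-adjusted p = 0.00635) and by -0.99 at 96 h (BH-adjusted p = 0.00775). Without the array at 9.34 the difference at 96 h was -0.64 and still called, and with only the arrays compared in the fit it was not (BH-adjusted p = 0.101). Against 24 h the effect at 96 h in growth media differed by -0.83 (BH-adjusted p = 0.0161), a call not made without the first nontargeting array at 96 h (-0.82, BH-adjusted p = 0.0521). On the other VEZF1 probe this difference was -0.32 (BH-adjusted p = 0.136), and the one between 48 and 24 h was -0.53 (BH-adjusted p = 0.00919), which the brighter probe did not call. Its other probe gave changes of 0.11 at 24 h (BH-adjusted p = 0.571), -0.42 at 48 h (BH-adjusted p = 0.00260) and -0.21 at 96 h (BH-adjusted p = 0.169) in growth media, and -1.09 (BH-adjusted p = 1.47e-08) and -1.12 (BH-adjusted p = 1.68e-08) in differentiation media. The probes thus disagreed on the call at 96 h in growth media, and both had larger effects in differentiation media, by -0.67 at 48 h (BH-adjusted p = 0.00152) and -0.90 at 96 h (BH-adjusted p = 0.000249) on the other probe. In cells with nontargeting siRNA the brighter probe of VEZF1 was higher in differentiation than in growth media at 48 h by 0.64 (BH-adjusted p = 0.00535), and with ZNF148 siRNA it was lower at 96 h by -0.74 (BH-adjusted p = 0.00380). Without the array at 9.34 the latter was -0.38 and still called, and it was not called with only the arrays compared in the fit (BH-adjusted p = 0.190) or by the methods' t-test (adjusted p = 0.273).

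PATZ1 was the dimmest member probe and was well above background on 28 of 29 arrays. At 24 h it read 6.40, 6.11 and 6.68 with nontargeting and 6.59, 6.70 and 6.69 with ZNF148 siRNA, with overlap and a difference of 0.26 (BH-adjusted p = 0.370). At 48 h in growth media it read 5.84, 6.39 and 6.19 against 5.08, 5.00 and 5.07, and at 96 h 6.01 and 6.22 against 4.97, 5.03 and 5.15. All ZNF148 siRNA arrays were the lower ones, by -1.09 at 48 h (BH-adjusted p = 3.95e-05) and -1.07 at 96 h (BH-adjusted p = 0.000198). In differentiation media PATZ1 read 6.80, 6.60 and 6.57 against 5.52, 4.68 and 4.68 at 48 h, a change of -1.70 (BH-adjusted p = 6.84e-08). At 96 h it read 6.19, 6.20 and 6.18 against 4.52, 4.89 and 5.05, a change of -1.37 (BH-adjusted p = 2.22e-06), and the array at 4.89 was the one not well above background. Against 24 h the effect on PATZ1 differed by -1.36 at 48 h (BH-adjusted p = 0.000305) and by -1.33 at 96 h (BH-adjusted p = 0.000603). The size depended on how background was treated: with normexp correction the 4 later changes were -0.48, -0.49, -0.77 and -0.59 and remained called.

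Across the 35 differences between effects, 5 for each of the 7 genes, 16 were called and all were negative. They comprised 4 of 7 genes for 48 against 24 h in growth media (34.6% of all probes called), 6 for 96 against 24 h (36.1%), 2 for 96 against 48 h (11.0%), 2 between media at 48 h (31.6%) and 2 between media at 96 h (24.1%). The shares of all probes count either direction. Several of these differences share arrays, the 24 h effect entering 2 of them, so the calls are not separate results. That for 96 against 24 h is the sum of those for 48 against 24 h and 96 against 48 h.

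Between media, 5 of the 7 genes were called with nontargeting siRNA at 48 h, where 38.5% of all probes were: ZNF148, SP4, VEZF1 and PATZ1 were higher in differentiation media and ZNF281 lower. At 96 h 2 were called (33.8% of all probes), ZNF148 higher and SP1 lower. With ZNF148 siRNA 0 were called at 48 h (13.4%), where 2 had an unadjusted p under 0.05 and 1 passed the methods' t-test unadjusted. At 96 h 4 were called (21.7%), SP4 higher by 0.37 (BH-adjusted p = 0.0189) and ZNF281, SP1 and VEZF1 lower. Of the calls at 48 h with nontargeting siRNA, those of ZNF281 (-0.24, BH-adjusted p = 0.0359), SP4 (0.29, BH-adjusted p = 0.0452) and PATZ1 (0.51, BH-adjusted p = 0.0324) were lost when 1 of 3 or 4 of their arrays was left out, and so was that of SP4 at 96 h with ZNF148 siRNA.

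From 48 to 96 h, 0 of the 7 genes were called in growth media with nontargeting siRNA (1.55% of all probes), where 3 had an unadjusted p under 0.05 and 1 passed the methods' t-test unadjusted. With ZNF148 siRNA in growth media 1 was called, the fall of SP4 (21.5%). In differentiation media 3 were called with nontargeting siRNA (32.2%), ZNF148 and ZNF281 higher and SP1 lower, and 4 with ZNF148 siRNA (27.9%), ZNF281, SP1, SP4 and VEZF1 lower. The fall of VEZF1 there was -0.70 (BH-adjusted p = 0.00424) and -0.34, still called, without the array at 9.34. ZNF281 rose by 0.37 with nontargeting (BH-adjusted p = 0.00247) and fell by 0.33 with ZNF148 siRNA (BH-adjusted p = 0.00620).

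The first nontargeting array at 48 h in growth media stood apart from its group. Its mean over 10 markers of differentiated muscle was 14.47, against 7.89 and 8.01 on the other arrays of the group and 15.68 to 15.76 with ZNF148 siRNA. Without it the 48 h effect in growth media was -2.24 for ZNF148, 0.08 for ZNF281, -0.42 for SP1, -0.98 for SP3, 0.66 for SP4, -0.54 for VEZF1 and -1.24 for PATZ1. The members called at 48 h in growth media were called without this array too, and their changes were as large or larger. The same array also enters other comparisons with nontargeting siRNA at 48 h in growth media, between media and over time. It enters the differences between effects that use the 48 h growth media effect too. For these, values without it are not set out here.

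Markers of differentiated muscle moved with the siRNA from 48 h on, and cell cycle markers and part of the muscle lineage genes at 24 h as well. The muscle lineage genes DES, MYOD1, MYF5, CDH15, CHRNA1 and NCAM1 were well above background on 29 of 29 arrays and PAX7 on 20, as the labelled cell type implies. Of these 7, 1 was called higher and 1 lower at 24 h, where 11.0% and 12.7% of all probes were. In growth media 5 were higher and 1 lower at 48 h and at 96 h. In differentiation media 4 were higher and 1 lower at 48 h, and 3 and 1 at 96 h. The summed linear signal of the 7 at 24 h was 165000 to 177000 with ZNF148 and 99200 to 103000 with nontargeting siRNA. Of the 10 markers of differentiated muscle, such as MYOG and CKM, 0 were called at 24 h, 10 were higher at 48 h and 10 at 96 h in growth media, and 9 at 48 h and 6 at 96 h in differentiation media. Their summed linear signal was 17100 to 18700 with ZNF148 and 17800 to 18700 with nontargeting siRNA at 24 h, and 1460000 to 1470000 against 43200 to 43500 at 96 h in growth media. At 48 h in growth media the sums were 1280000 to 1330000 against 25600 to 631000, in differentiation media 1580000 to 1620000 against 42900 to 83600 at 48 h and 1840000 to 1890000 against 305000 to 351000 at 96 h. Of the 6 markers of cycling cells, 4 were higher at 24 h and 6 were lower at 48 h and at 96 h in growth media, their sum at 96 h being 3880 to 4150 against 32500 to 34000. In differentiation media 3 cycling markers were lower and 2 higher at 48 h and 6 were lower at 96 h. The part of these marker changes in those of SP1, SP3, VEZF1 and PATZ1 was not tested. In bulk arrays fewer cells of a type and less RNA per cell cannot be told apart.

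Markers of other cell types were at or near background in part. KRT5 and PLIN1 were well above background on 0 arrays, FABP4 on 1, EPCAM on 2, TCF21 and CDH1 on 3 and ADIPOQ on 4. The epithelial marker KRT18, in contrast, was above background on 29 arrays and the leukocyte marker PTPRC on 26. The 4 endothelial markers, of interest because VEZF1 is known from endothelium, summed to 861 to 965 with nontargeting and 886 to 905 with ZNF148 siRNA at 24 h. In the same order the sums in growth media were 557 to 765 against 180 to 215 at 48 h and 549 to 576 against 189 to 219 at 96 h. In differentiation media they lay closer, at 227 to 251 against 161 to 210 at 48 h and 221 to 258 against 167 to 212 at 96 h. Of the 4, 0 were called at 24 h, and 1 was lower at 48 h and 2 at 96 h in growth media. In differentiation media 2 were lower at 48 h, and 2 were lower and 1 higher at 96 h. Among these 4 endothelial markers CDH5 was above background on 29 arrays, PECAM1 on 26, VWF on 25 and KDR on 14. The fibroblast markers PDGFRA, DCN and LUM were above background on 29 of 29 arrays, and with TCF21 their sum was lower with ZNF148 siRNA in each comparison, at 34500 to 37100 against 53600 to 56400 at 24 h and 21000 to 24700 against 120000 to 140000 at 96 h in growth media. In differentiation media it was 23800 to 24800 against 114000 to 125000 at 48 h and 16600 to 18400 against 54600 to 59600 at 96 h, and 1 to 2 of the 4 were called lower in every comparison and 1 higher at 24 h and at 48 h in growth media. The part of the endothelial and fibroblast markers in the changes of VEZF1 and the other members was not tested.

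The genes whose pattern over the 29 arrays was most like that of ZNF148 were OGA, ASB13, CLUAP1, PIP4P1 and ARSD, with Pearson r of 0.974, 0.964, 0.964, 0.961 and 0.958. Among the related factors r with ZNF148 was 0.815 for SP3, 0.764 for VEZF1, 0.690 for PATZ1, 0.489 for SP1, -0.152 for SP4 and -0.294 for ZNF281. In that order they ranked 772, 1252, 1997, 4009, 11803 and 13289 among the genes with a tested probe, so many other genes were more like ZNF148. These values are over arrays that share the knockdown, the media and the time, and describe likeness only.

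Among wider relatives, the other SP factors (5 tested of 6) had 1 call higher and 0 lower at 24 h, 0 and 1 at both later times in growth media, and 0 and 2 at both times in differentiation media. The counts of listed genes are to be read against the share of all tested probes called, 11.0% higher and 12.7% lower at 24 h, 21.0% and 24.2% at 48 h, 20.8% and 23.2% at 96 h in growth media, and 24.3% and 28.3% at 48 h and 21.0% and 27.1% at 96 h in differentiation media, and medians against those of all probes given above. The median change of the SP list ran from -0.28 to 0.18. The 17 KLF factors, which bind GC-rich and CACCC elements, had 3 higher and 6 lower at 24 h, 5 and 7 at 48 h, then 3 and 8 at 96 h in growth media, and 5 and 7 at 48 h and 4 and 7 at 96 h in differentiation media, with medians from -0.45 to -0.06. KLF5, a factor of proliferating and progenitor cells, was 0.48 at 24 h (BH-adjusted p = 0.332) and rose by 2.83 and 2.54 in growth and by 3.43 and 2.64 in differentiation media at 48 and 96 h. KLF8 fell in all 5 comparisons, by between 1.08 and 2.04, and KLF10, an early response gene of TGF-beta, fell in the 4 later ones, with changes of -1.2, -1.03, -2.2 and -2.18. Of 7 tested among 9 other factors that bind G-rich or GC-box sites, 1 was higher and 2 lower at 24 h, 4 and 2 at each later time in growth media, and 4 and 1 at 48 h and 5 and 2 at 96 h in differentiation media, with medians from 0.01 to 0.60. Among the 4 higher at 48 h in growth media was EGR3, with no array of these groups well above background. EGR2, an immediate early factor, was 0.16 at 24 h (BH-adjusted p = 0.867) and rose by between 1.79 and 3.56 later, and ZBTB7A was lower in all 5, from -1.62 to -0.95. EGR3 was not well above background on any nontargeting array at 96 h in growth media and 48 h in differentiation media, and was at least 3.26-fold higher with ZNF148 siRNA in the former and at least 3.67-fold in the latter, the bound being taken from the lowest signal well above background on each dim array.

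**Figure D4:**
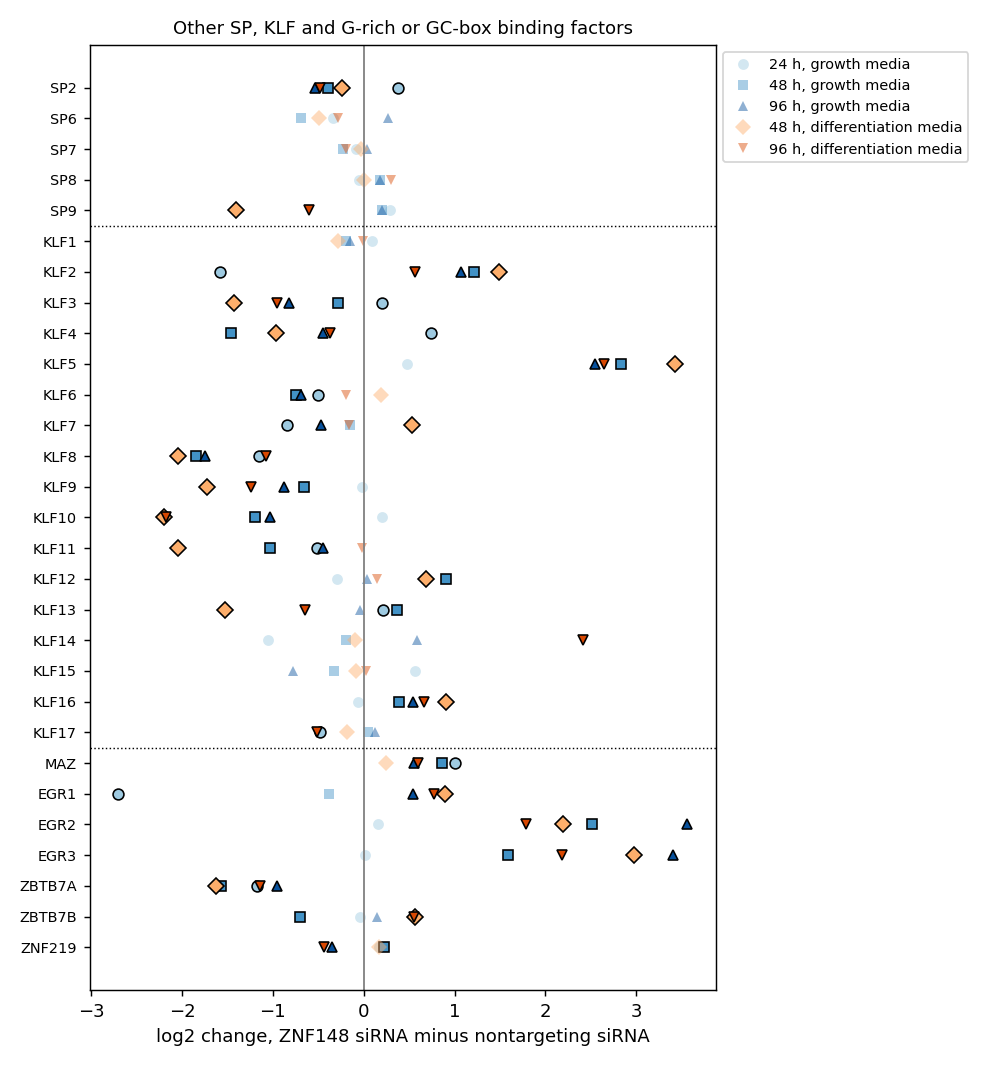
Change in log2 signal with ZNF148 siRNA for the other SP, KLF and G-rich or GC-box binding factors in the 5 comparisons, with outlined symbols for changes called at an adjusted p under 0.05. KLF5 and EGR2 lie above 0 and KLF8, KLF10 and ZBTB7A below 0 at 48 and 96 h.

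Genes described in the literature as ZNF148 targets were called in both directions, as were probes at large. Of the 13 tested of 14, 4 were higher and 3 lower at 24 h, 5 and 5 at 48 h, then 7 and 3 at 96 h in growth media, and 6 and 5 at 48 h and 5 and 4 at 96 h in differentiation media, with medians of -0.08, -0.03, 0.49, 0.36 and 0.06. ENO3, the muscle enolase, was 0.09 at 24 h (BH-adjusted p = 0.996) and rose by 5.77 and 5.28 in growth and by 6.16 and 3.05 in differentiation media. VIM, which encodes vimentin, was -0.09 at 24 h (BH-adjusted p = 0.449) and fell in the later comparisons, with changes of -0.84 and -1.04 in growth and -1.04 and -0.90 in differentiation media. COX5B, a subunit of cytochrome oxidase, was called lower at 24 h (-0.19), 48 h in growth media (-0.27) and 48 h in differentiation media (-0.29) and not at 96 h in either. COL1A1, a fibrillar collagen chain, rose by 2.31, 2.43, 2.63 and 1.31 in the first 4 comparisons and was 0.05 in the last (BH-adjusted p = 0.934), while MMP3, a matrix metalloproteinase, was -0.12 at 24 h (BH-adjusted p = 0.654) and fell in the others, with changes of -2.21, -2.77, -3.47 and -4.03. ENO3 is itself a muscle gene and rose together with the differentiated muscle markers given above.

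Partners of ZNF148 were counted in the same way against the shares of all probes. Of the genes of 10 described partner proteins 9 were tested, and 4 were higher and 1 lower at 24 h, 4 and 3 at 48 h, then 1 and 3 at 96 h in growth media, and 2 and 4 at 48 h and 2 and 7 at 96 h in differentiation media, with medians of 0.26, 0.15, 0.08, -0.10 and -0.29. HNRNPDL, an RNA-binding protein, was called in all 5 comparisons, at 0.40, 0.44, -0.26, 1.33 and -0.46. YY1, a GLI-Krüppel zinc finger factor, was higher at 24 h by 0.27 (BH-adjusted p = 0.00304) and lower at 96 h in differentiation media by -0.18 (BH-adjusted p = 0.0245). JUN, part of the AP-1 factor, was lower at 24 h (-0.75) and 48 h (-0.82) in growth media and at 48 h (-2.5) and 96 h (-1.77) in differentiation media, and its change at 96 h in growth media was 0.38 (BH-adjusted p = 0.205). STAT3, a mediator of cytokine signals, was higher by 0.40 at 24 h (BH-adjusted p = 0.00439) and lower by -0.74 at 48 h in differentiation media.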

How the data were processed

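RNA was labelled with Cy3 and hybridised to Agilent 8x60K arrays, one colour, and the submitters' notes name Agilent Feature Extraction 10.7.3.1. The deposited log2 values, used here, were made by the authors by quantile normalization of background-subtracted signal in Partek. The deposited scanner intensity, the background-subtracted median signal, and its well-above-background marks served for filters and alternatives. Depth has no meaning for arrays, and their number per group limits the precision. Between 41.6% and 56.5% of probes were well above background per array.

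Probes entered the test where 2 or more arrays were well above background, and limma 3.58.1 in R 4.3.3 was used, in 1 fit with 10 group means, two-sided, with Benjamini-Hochberg adjustment over all 38839 probes. A call is an adjusted p under 0.05, and was also counted with more than 2-fold. The fit was tested on simulated data. Promoter windows were searched in Python 3.11.15. A gene was given by its tested probe of highest mean. The named genes are the 7 members, the 5 with the highest r to ZNF148, genes the study names, and listed genes called past 2-fold in 1 direction in at least 4 of the 5 siRNA comparisons, plus EGR3 and the markers, 1 of which is not reported here. EGR3 was picked after its values were seen. The members and lists were chosen with earlier results of these data known. Alternatives were normalization, background correction, filters, slide and replicate blocks, array weights, the methods' t-test on the same values, averaged probes and leaving out each array. A common 24 h slide and the 3 later slides were the batches known from the files. No array was left without a group.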

Additional observations from a re-analysis of the deposited data

Results flagged for a closer look

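The siRNA effect (ZNF148 minus nontargeting siRNA, log2) differed between times or media in 16 of 35 differences tested with limma. Against 24 h, 34.6% of all probes were called at 48 h and 36.1% at 96 h in growth media. The share was 11.0% for 96 against 48 h, and between media 31.6% at 48 h and 24.1% at 96 h. Several of the calls were lost under alternatives, as given above and in the next section. Differences from 24 h cannot be told apart from cell density. In growth media the effect at 48 h lay below that at 24 h by -0.55 for ZNF148 (adjusted p = 0.0320), -0.72 for SP1 (adjusted p = 1.32e-05), -0.83 for SP3 (adjusted p = 0.00188) and -1.36 for PATZ1 (adjusted p = 0.000305). The effect at 96 h lay below that at 24 h by -0.77 for ZNF148 (adjusted p = 0.00500), -1.08 for SP1 (adjusted p = 1.09e-07), -1.21 for SP3 (adjusted p = 8.12e-05), -0.85 for SP4 (adjusted p = 0.000334), -0.83 for VEZF1 (adjusted p = 0.0161) and -1.33 for PATZ1 (adjusted p = 0.000603). SP1 and SP4 had effects above 0 at 24 h and below 0 at 96 h. On the other ZNF148 probe neither difference from 24 h was called (-0.23, adjusted p = 0.527, and -0.31, adjusted p = 0.394). Nor was that of VEZF1 at 96 h on its other probe.

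The effect at 96 h lay below that at 48 h in growth media by -0.37 for SP1 (adjusted p = 0.0367) and -1.09 for SP4 (adjusted p = 0.000140). Between media, the effect in differentiation media lay below that in growth media by -0.34 for SP1 (adjusted p = 0.0153) and -0.92 for VEZF1 (adjusted p = 0.00635) at 48 h, and by -0.53 for ZNF281 (adjusted p = 0.00509) and -0.99 for VEZF1 (adjusted p = 0.00775) at 96 h, the last being -0.64 without the second ZNF148 siRNA array.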

How the results depend on the processing

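Of the values and counts recomputed under each alternative, none reversed a call. The change of ZNF148 was called under each one, within -1.78 to -1.22 at 24 h, -2.24 to -1.57 at 48 h and -2.40 to -1.85 at 96 h in growth media, and within -2.42 to -1.89 and -2.84 to -2.22 in differentiation media. With slide as a block it was -1.53, -2.08, -2.14, -2.34 and -2.80 in that order. Within slides holding both groups it lay between -2.84 and -1.53, and called members kept their direction within each slide. The 75th percentile scaling moved the median of all probes by 0.137 at 96 h in differentiation media, the one move over 0.1. Relative to that shift the members there changed by -2.74 (ZNF148), -0.51 (ZNF281), -0.74 (SP1), -1.12 (SP3), -0.34 (SP4), -1.89 (VEZF1) and -1.32 (PATZ1), and under this scaling no siRNA call on a member changed.

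Requiring 2-fold as well left 0, 1, 2, 3 and 2 of the related factors in the 5 siRNA comparisons. With it no media or time difference was left (0 genes in each), and the differences between effects left 1 gene for 48 against 24 h, 3 for 96 against 24 h, 1 for 96 against 48 h and 0 for both media differences. For media with nontargeting siRNA at 48 h (5 genes), there were 3 without the filter or with array weights, 1 with only the arrays compared or with the methods' t-test adjusted, and 3 to 4 leaving out each array. With ZNF148 siRNA the media count at 48 h was 1 by the methods' t-test unadjusted or with probes averaged, and at 96 h 2 with only the arrays compared or the methods' t-test adjusted. Over time in growth media, normexp or the unadjusted methods' t-test gave 1 gene with nontargeting siRNA, and normexp gave 2 with ZNF148 siRNA. In differentiation media the nontargeting count became 6 with array weights and 5 with the methods' t-test unadjusted or probes averaged, and the ZNF148 siRNA count 1 with only the arrays compared and 2 by the methods' t-test adjusted. The difference between effects at 96 and 48 h had 1 gene with 75th percentile scaling, no filter, only the arrays compared, array weights or the replicate block, and 1 to 2 leaving out each array. That between media had 1 at 48 h with 75th percentile scaling, only the arrays compared or the replicate block, 1 to 3 leaving out each array, and 1 at 96 h with only the arrays compared or the replicate block. Causes of these moves were not tested.

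Replicate numbers did not pair the arrays: deviations of arrays with 1 number correlated between -0.16 and 0.123. The numbers are those of the sample titles, and sample descriptions number the ZNF148 siRNA arrays at 48 h in growth media differently. With the number as a replicate block, the siRNA calls of SP4 at 24 h (adjusted p = 0.0764) and 96 h in growth media (adjusted p = 0.0681) and of VEZF1 at 48 h in growth media (adjusted p = 0.0675) were not made. Nor were 6 differences between effects, those of ZNF148 at 48 and 96 h against 24 h (adjusted p = 0.115 and 0.0732), VEZF1 at 96 h against 24 h (adjusted p = 0.0624), SP1 at 96 against 48 h (adjusted p = 0.138) and between media at 48 h (adjusted p = 0.0650) and ZNF281 between media at 96 h (adjusted p = 0.0726). It changed no other call on the members. With slide as a block, PATZ1 was also called lower at 96 than 48 h in differentiation media with nontargeting siRNA (-0.52, adjusted p = 0.0451).

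Over all probes, 9179 were called at 24 h, against 13887 by the methods' t-test unadjusted. With 2-fold as well there were 1857, and 7792 of 17542, 8068 of 17089, 10876 of 20408 and 8012 of 18673 in the other siRNA comparisons. With probes averaged, over 18432 genes, these 4 counts were 10858, 10544, 12018 and 10940. With 2 or 3 arrays a group, brightness limits PATZ1 most, and 1 array decides several calls named above.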
